A study of Mus musculus with 7 samples.

Results

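The bile and sterol transporters of hepatocytes are the membrane proteins that move bile acids, phospholipid, cholesterol, bilirubin conjugates and plant sterols between blood, hepatocyte and bile. The set held 10 genes, Abcb11, Abcb4, Abcc2, Abcc3, Abcc4, Abcg5, Abcg8, Abcg2, Slc10a1 and Atp8b1, chosen by gene symbol among the array's non-control probes. These 10 genes had 12 of the array's 55681 probes, because Abcb4 and Slc10a1 carried a pair each. All 12 probes lay well above background on all 7 arrays, so none was lost to the filter on dim probes that left 24548 probes and 18755 genes for testing.

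Gene expression was measured in whole liver of C57BL/6J mice at the age of 4 weeks on Agilent one-colour arrays, in which Cy3-labelled RNA of 1 animal is hybridised to one array. The 4 Rbpj+/+ mice (Rbpj+/+_1155 and Rbpj+/+_1156, then Rbpj+/+_1024 and Rbpj+/+_991) were AlfpCre- Rbpj flox/flox, without cholestasis. The 3 Rbpj-/- mice (Rbpj-/-_N3, Rbpj-/-_N5 and Rbpj-/-_2866) were AlfpCre+ Rbpj flox/flox and cholestatic. Both genotypes thus carried the floxed Rbpj allele, no animal was treated, and the groups differed in Cre, in the loss of Rbpj (the DNA-binding factor of Notch signalling) and in cholestasis together. The study also reported liver necrosis, infiltrating immune cells, fibrosis, more proliferating hepatocytes and lower body weight in Rbpj-/- mice of this age. None of these can be told apart from genotype here. The Alfp promoter drives Cre in the liver lineage before birth, in the cells that give rise to hepatocytes and to bile duct cells, so a difference below cannot be assigned to either cell type. In whole liver, fewer cells of a type and less RNA per cell cannot be told apart. Rbpj+/+_1156 and Rbpj-/-_N3 stood apart by their bright dim probes, with 61.8% and 64.9% of probes above background, beside 41.1% to 47.7% on the other arrays. Without both, 1 transporter was still called higher and 2 lower.

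Bile is formed at the canaliculus, the narrow channel between hepatocytes. There ABCB11 (the bile salt export pump) secretes bile acids, ABCB4 flops phosphatidylcholine into the outer leaflet, the ABCG5/ABCG8 heterodimer exports cholesterol and plant sterols, ABCC2 exports conjugated bilirubin, and ATP8B1 flips phospholipid back to keep the membrane stable. At the opposite, sinusoidal side SLC10A1 (NTCP) takes up bile acids from blood, whereas ABCC3 and ABCC4 export bile acids and conjugates back into it, a route known to be used more when bile flow is blocked.

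A few sequences show what the probes and promoters of these genes hold. The pair of Slc10a1 probes is shown first because only 1 of them was called below, although both read lower in Rbpj-/- liver. The first 30 bases of each 60-base probe are given 5′ to 3′, and the capitals mark 20 bases that 2 other probes of the array also carry.

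Slc10a1 probe A_52_P69109: cctacaaaggcattatgttatcactcgtca
Slc10a1 probe A_55_P1954987: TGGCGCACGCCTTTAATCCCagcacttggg

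Probe A_52_P69109 maps to chr12:82061470-82061529 of mm9, and the RefSeq transcripts that could be named for it all belong to Slc10a1. Probe A_55_P1954987 maps to chr12:100686870-100686929, 18.6 Mb away, and its 4 listed transcripts belong to 4 genes, Slc10a1, Med16, Spc24 and 4930402H24Rik. It shared a stretch of 20 bases with 3 other probes of the array in all, whereas none of the other 11 probes shared one with any probe. Its signal can therefore come from more than Slc10a1.

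The promoters come from RefSeq (GRCm38.p6), which gave 1 or more entries, 13 in all, for 8 of the 10 genes and none for Abcc3 and Atp8b1. Capitals mark matches to motifs on either strand. For Abcb11 they mark AGGNCA and TGACCT with 1 base between them, the inverted repeat of the kind bound by the bile acid receptor FXR. For the region between the Abcg5 and Abcg8 start sites they mark AGATAA or its complement, the GATA motif. For both starts of Abcc4 they mark TGACNNNGC or its complement, the core of the antioxidant element bound by NRF2.

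Abcb11 promoter, chr2:69342617-69342736, minus strand: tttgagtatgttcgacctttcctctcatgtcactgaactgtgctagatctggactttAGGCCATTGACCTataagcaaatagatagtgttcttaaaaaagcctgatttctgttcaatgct
Abcg5-Abcg8 shared region, chr17:84683012-84683120, plus strand: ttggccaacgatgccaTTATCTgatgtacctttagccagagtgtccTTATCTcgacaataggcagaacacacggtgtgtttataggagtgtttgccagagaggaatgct
Abcc4 outer promoter, chr14:118706220-118706339, minus strand: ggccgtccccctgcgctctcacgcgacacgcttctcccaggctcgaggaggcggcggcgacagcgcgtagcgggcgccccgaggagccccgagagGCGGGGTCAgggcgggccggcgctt
Abcc4 inner promoter, chr14:118676932-118676991, minus strand: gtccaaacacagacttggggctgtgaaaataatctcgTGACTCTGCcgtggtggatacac

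The FXR-type repeat lies 63 to 51 bases before the Abcb11 start, and 12 of 32851 promoter entries of 300 bases held it, a share of 0.0365%. The GATA motif was in 11.2% of the entries and the antioxidant core in 12.4%, so the latter matches single out little. The antioxidant core also lay 98 to 90 bases before the Abcc2 start. The other motifs searched were the LXR repeat AGGTCA, any 4 bases, AGGTCA (in none of the 13 entries and 0.0152% of all), the RBPJ motif TGGGAA (in the Abcc2 entry and 25.6% of all) and the E-box CACGTG (in 1 Abcc4 entry and 7.15% of all). None of these letters overlapped another motif in the entries. The 109 bases between the Abcg5 and Abcg8 starts are the upstream sequence of both genes. A match is a description of letters and not a measured binding site.

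Of the 10 transporters, Abcc4 rose in Rbpj-/- liver, Abcg2 fell, and 7 others did not pass the test. Slc10a1 was called lower by its brighter probe, whose listed transcripts belong to 4 genes, and not called by its other probe. Levels are log2 of the Agilent processed signal minus the 75th percentile of the same array, so that 0 is the level of that percentile. That percentile was higher on every Rbpj-/- array than on every Rbpj+/+ array. Separation and sign below therefore refer to scaled values unless the intensity scale is named. Differences are Rbpj-/- minus Rbpj+/+, tested with limma's moderated test and called at a Benjamini-Hochberg adjusted p below 0.1 over all tested probes, the study's threshold. As a check of the labels, the brighter Rbpj probe read 0.97, 0.29, 0.33 and 0.81 in Rbpj+/+ and -0.35, -0.78 and -0.48 in Rbpj-/- livers, a fall of 1.13 (SE 0.24, adjusted p = 0.0115). The brightest tested probe stands for a gene. The 1 member called higher is to be read against 14.6% of all genes called higher, and the 2 called lower against 19.5% called lower. In either direction 3 of 10 members (30%) were called, beside 34.2% of all genes, so the transporters were not called at a greater share than the background. With Slc10a1 represented by the probe whose transcripts are all its own, 2 of 10 (20%) were called. The median log2 difference of the members was -0.18, beside -0.13 for all tested genes, and their median absolute difference was 0.28, beside 0.45 for all genes. All but Abcc4 differed by less than 1 on the log2 scale.

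**Figure D1:**
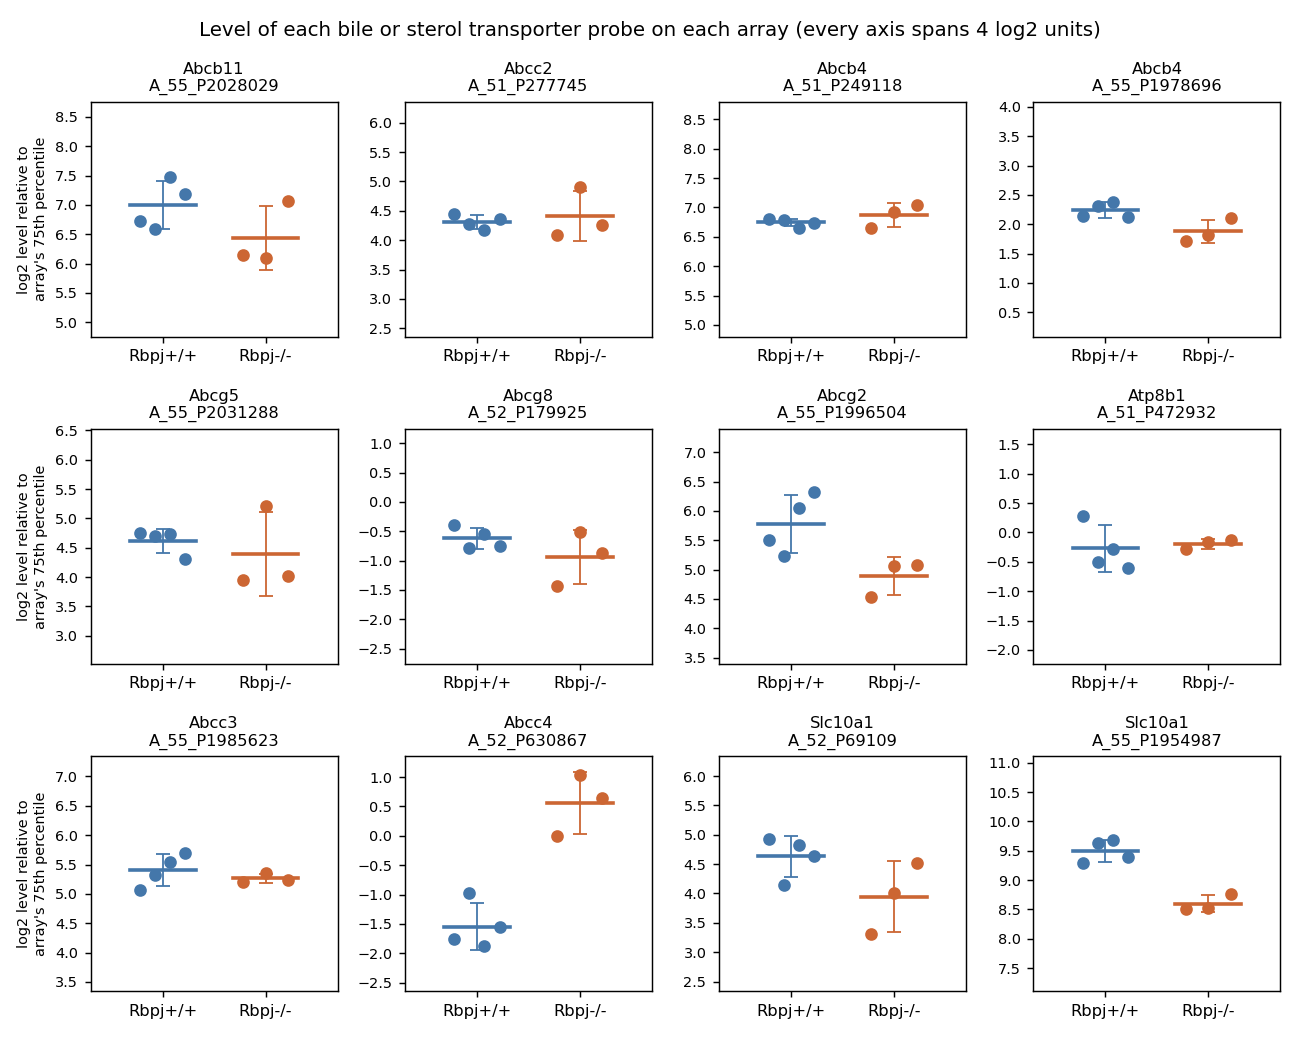
Level of each of the 12 probes (vertical axis, log2 relative to the array's 75th percentile, every panel spanning 4 log2 units) in the 4 Rbpj+/+ and 3 Rbpj-/- livers. Each point is one array, thick lines are group means and bars are 1 SD; the groups do not overlap for Abcc4, Abcg2, Slc10a1 probe A_55_P1954987 and Abcb4 probe A_55_P1978696.

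Abcc4, the sinusoidal exporter MRP4, was the one transporter that differed by more than 1 on the log2 scale. Its log2 levels were -1.77, -0.98, -1.89 and -1.55 in the Rbpj+/+ livers and 0.00, 1.04 and 0.64 in the Rbpj-/- livers, in the order in which the mice are named above, which is kept for every gene. Every Rbpj-/- animal lay above every Rbpj+/+ animal, with Rbpj-/-_N5 the highest and Rbpj-/-_N3 the lowest of its group. On the array's own intensity scale the spots read 15.6 to 43.4 in Rbpj+/+ and 142.2 to 267.5 in Rbpj-/- liver. Abcc4 rose by 2.11 on the log2 scale (SE 0.31, 95% confidence interval 1.41 to 2.80, adjusted p = 0.00297 in limma), or 4.31-fold, and 2.38% of the tested genes rose more. The Abcc4 spots are dim, and the size depended on how background was handled: with normexp background correction the log2 difference was 1.11, still called. Leaving out any 1 animal kept the call, with differences of 1.87 to 2.39.

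The other sinusoidal exporter, Abcc3 (MRP3), was not called. Its levels were 5.07, 5.32, 5.54 and 5.69 in Rbpj+/+ and 5.20, 5.35 and 5.24 in Rbpj-/- livers. All 3 scaled Rbpj-/- values fell inside the Rbpj+/+ range. On the array's own intensity scale they all lay above it, at 2680 to 3870 in Rbpj+/+ and 4462 to 5297 in Rbpj-/- liver. The log2 difference was -0.14 (SE 0.20, interval -0.60 to 0.32, adjusted p = 0.641), and its sign turned to 0.06 with normexp correction and after quantile normalization. The upper bound of this interval lies below the lower bound of the Abcc4 interval.

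Slc10a1 (NTCP), the main sodium-dependent carrier for conjugated bile acids from blood, was lower in Rbpj-/- liver by one probe and not called by the other. Probe A_55_P1954987, the brighter one, read 9.29, 9.63, 9.69 and 9.39 in Rbpj+/+ and 8.52, 8.52 and 8.76 in Rbpj-/- livers, with no overlap between the groups. On the array's own intensity scale its spots overlapped, at 47330 to 67690 in Rbpj+/+ and 47570 to 52190 in Rbpj-/- liver. The 75th percentile that was subtracted was 57.5 to 102.6 in Rbpj+/+ and 118.1 to 142.5 in Rbpj-/- liver. The groups were thus separate after this scaling and not before it. After scaling the probe fell by 0.90 on the log2 scale (SE 0.19, adjusted p = 0.0122 in limma). This is the probe whose listed transcripts belong to 4 genes, and its call was lost with quantile normalization, where the difference was -0.43 (adjusted p = 0.112), in the authors' quantile-normalized series matrix (-0.40, adjusted p = 0.126) and without the filter on dim probes (adjusted p = 0.115). Probe A_52_P69109 read 4.93, 4.14, 4.82 and 4.65 in Rbpj+/+ and 3.31, 4.00 and 4.52 in Rbpj-/- livers. Rbpj-/-_2866 lay within the Rbpj+/+ range, whereas Rbpj-/-_N3 and Rbpj-/-_N5 lay below it. The difference at this probe was -0.69 (SE 0.31, interval -1.40 to 0.02, adjusted p = 0.140). It passed the test without Rbpj+/+_1156 (-0.85, adjusted p = 0.0791) and without Rbpj-/-_2866 (-0.98, adjusted p = 0.0720), and with all animals kept under array weights (-0.68, adjusted p = 0.0789).

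Abcg2 (BCRP), a canalicular exporter of urate, porphyrins and many drugs, was the other transporter called lower. Its levels were 5.50, 5.24, 6.04 and 6.31 in Rbpj+/+ and 4.52, 5.06 and 5.08 in Rbpj-/- livers. After scaling the groups did not overlap, although Rbpj+/+_1156 and the upper Rbpj-/- animals lay close together. On the array's own intensity scale they overlapped, at 3230 to 5952 in Rbpj+/+ and 3281 to 4335 in Rbpj-/- liver. Abcg2 fell by 0.88 on the log2 scale (SE 0.29, interval -1.55 to -0.22, adjusted p = 0.0599), to 0.542 of the Rbpj+/+ level. The call was narrow: it was lost without Rbpj+/+_1024 (adjusted p = 0.146), Rbpj+/+_991 (0.129), Rbpj-/-_N3 (0.186) or Rbpj-/-_N5 (0.119), and without the filter on dim probes (0.272), while the difference stayed between -1.06 and -0.70 whichever animal was left out.

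Among the canalicular pumps, Abcb11, the bile salt export pump, read 6.73, 6.58, 7.47 and 7.19 in Rbpj+/+ and 6.14, 6.10 and 7.07 in Rbpj-/- livers. Rbpj-/-_N3 and Rbpj-/-_N5 lay below all Rbpj+/+ animals, whereas Rbpj-/-_2866 lay among them. The log2 difference was -0.56 (SE 0.32, interval -1.27 to 0.16, adjusted p = 0.228). Without Rbpj-/-_2866 it was -0.87 and passed (adjusted p = 0.0852). Abcc2 (MRP2), the pump for conjugated bilirubin, read 4.45, 4.27, 4.18 and 4.36 in Rbpj+/+ and 4.09, 4.90 and 4.26 in Rbpj-/- livers. Rbpj-/-_N5 stood above and Rbpj-/-_N3 just below the Rbpj+/+ range, and the difference of 0.10 (SE 0.23, interval -0.42 to 0.62, adjusted p = 0.771) became -0.14 when Rbpj-/-_N5 was left out.

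For Abcb4, the phosphatidylcholine floppase, the pair of probes differed in sign. Probe A_51_P249118, at chr5:8959108-8959167 of mm9, is listed for the RefSeq transcript of Abcb4. It read 6.80, 6.78, 6.66 and 6.74 in Rbpj+/+ and 6.65, 6.93 and 7.04 in Rbpj-/- livers. Rbpj-/-_N3 lay at the lower edge of the Rbpj+/+ range and the other Rbpj-/- animals above it. The spread among Rbpj+/+ animals was small (SD 0.063, n = 4), and the difference was 0.13 (SE 0.18, interval -0.28 to 0.54, adjusted p = 0.627). Probe A_55_P1978696, at chr5:8899682-8899741, lists no RefSeq transcript and was designed on a cDNA clone. It read 2.14, 2.31, 2.39 and 2.12 in Rbpj+/+ and 1.72, 1.82 and 2.10 in Rbpj-/- livers. Here the scaled Rbpj-/- values all lay below the Rbpj+/+ values, by a hair for Rbpj-/-_2866. The difference of -0.36 (SE 0.19, adjusted p = 0.191) was not called. On the array's own intensity scale the order was the reverse, at 300.6 to 452.6 in Rbpj+/+ and 457.2 to 507.3 in Rbpj-/- liver. The first probe was also higher on that scale, at 5801 to 11400 in Rbpj+/+ and 14360 to 15810 in Rbpj-/- liver. With normexp correction the first probe passed as higher, at 0.44 (adjusted p = 0.0602). Atp8b1, the phospholipid flippase, read 0.29, -0.50, -0.27 and -0.60 in Rbpj+/+ and -0.29, -0.17 and -0.12 in Rbpj-/- livers. Its Rbpj-/- values sat inside the Rbpj+/+ range, with a difference of 0.08 (SE 0.24, interval -0.47 to 0.62, adjusted p = 0.836) that turned to -0.02 with normexp correction.

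**Figure D2:**
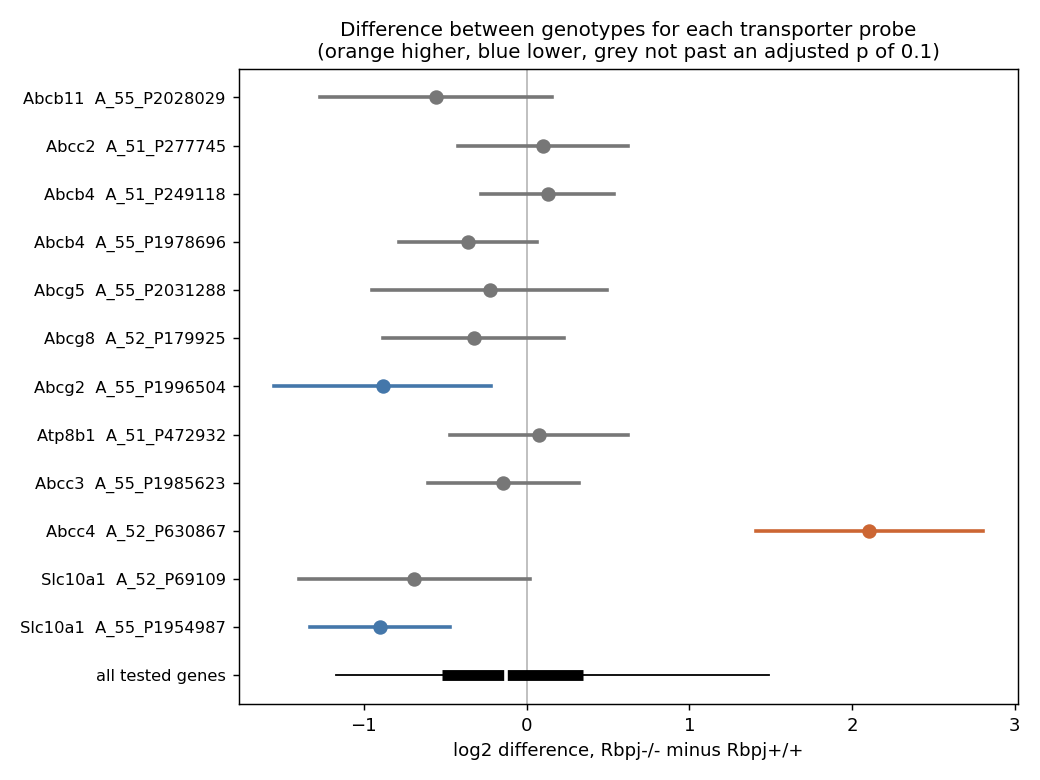
Log2 difference between Rbpj-/- and Rbpj+/+ livers (horizontal axis) for the 12 probes, with the 95% confidence interval from limma; the bottom row shows the 5th to 95th percentile (thin line, -1.17 to 1.49), the 25th to 75th percentile (thick bar) and the median (white tick) of all tested genes. Abcc4 is the one probe outside that range.

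The sterol exporter subunits Abcg5 and Abcg8, whose proteins work only as a pair, were not called. Abcg5 read 4.75, 4.69, 4.73 and 4.31 in Rbpj+/+ and 3.94, 5.22 and 4.02 in Rbpj-/- livers. Abcg8 read -0.40, -0.78, -0.54 and -0.75 in Rbpj+/+ and -1.43, -0.52 and -0.88 in Rbpj-/- livers. For both genes Rbpj-/-_N3 and Rbpj-/-_2866 lay below all Rbpj+/+ animals, and Rbpj-/-_N5 stood apart from them, above every Rbpj+/+ animal for Abcg5 and within their range for Abcg8. The difference of Abcg5 was -0.23 (SE 0.32, interval -0.95 to 0.50, adjusted p = 0.633), and it was 0.04 with normexp correction. The difference of Abcg8 was -0.33 (SE 0.25, interval -0.88 to 0.23, adjusted p = 0.360). Across the 7 arrays, which share a slide and the percentile scaling, Abcg5 and Abcg8 had a Pearson r of 0.79. A higher r with Abcg8 was found for 651 of 18726 genes. With 7 arrays this describes likeness only.

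Each probe was also tested by exact permutation, two-sided, over the 35 ways to split 4 and 3 animals, where the smallest p the design allows is 0.0571, so no single probe could reach 0.05. That value was reached by Abcc4, Abcg2, Slc10a1 probe A_55_P1954987 and Abcb4 probe A_55_P1978696, whose groups do not overlap after the percentile scaling. Before it, only Abcc4 among these was separate in the same direction. By each gene's brightest probe 3 of 10 members had groups that did not overlap, beside 36.6% of all genes. Of these, 1 was higher in Rbpj-/- liver, beside 15.4% of all genes, and 2 were lower, beside 21.1%. The exact permutation p was 0.171 for Abcb11 and 0.114 for Slc10a1 probe A_52_P69109, and between 0.286 and 0.80 for the remaining probes.

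Of 11 exporters outside the set that the array carries, 7 were above background on all 7 arrays, and of these 4 rose, 2 fell and 1 was not called. Another 3, Abcc1, Abcb1b and Atp7b, passed the filter on dim probes only through the Rbpj-/- arrays, and with them 10 were tested, 6 called higher and 2 lower. With these 3 included the share called was 80%, beside 34.2% of all genes. The median log2 difference of the 10 was 1.36, but 0.44 with normexp correction and 0.76 with marked spots kept. Without the filter on dim probes 4 were called higher and limma called 0 lower, with 2 lower at an unadjusted p below 0.05. Slc51b, the beta subunit of the sinusoidal bile acid exporter OST, read -1.94, -1.47, -0.54 and -1.57 in Rbpj+/+ and 2.58, 2.66 and 1.87 in Rbpj-/- livers. The groups lay far apart, and Slc51b rose by 3.75 (SE 0.35, adjusted p = 0.000487). Its partner Slc51a was not above background on all arrays of either group and was not tested. Abcb1a, a P-glycoprotein drug exporter, rose by 3.06 (SE 0.43, adjusted p = 0.00245), or by 1.55 with normexp correction, and Abcg1, which loads cholesterol onto lipoproteins, by 1.86 (SE 0.20, adjusted p = 0.000823). Abcc1 (MRP1) rose by 2.02 but was above background in 1 of 4 Rbpj+/+ livers and changed by 0.28 with normexp correction (adjusted p = 0.165). Abcb1b rose by 1.54, with 1 Rbpj+/+ value dropped for a marked spot, and its sign turned to -0.48 when marked spots were kept. Abcc5 rose by 1.18, or by 0.47 and no longer called (adjusted p = 0.363) as the mean of its 3 tested probes. Abcc6, the hepatocyte protein whose loss causes pseudoxanthoma elasticum, fell by 0.99, and Abcc10 (MRP7) fell by 1.16. The copper exporter Atp7b (0.27, interval -0.61 to 1.15) and the cholesterol exporter Abca1 (0.35, interval -0.21 to 0.92) were not called. Over all other ABC transporter genes, which include most of these, 16 of 32 tested (50%) were called, beside 34.2% of all genes. Of the 16, 10 were higher and 6 lower, and the array carried 42 such genes.

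Among the carriers and ligases that act beside Slc10a1 in taking up and conjugating bile acids, 5 of 7 fell and none rose. The share called was 71.4%, beside 34.2% of all genes. Slco1a1, an organic anion carrier, read 4.62, 3.92, 4.41 and 4.83 in Rbpj+/+ and -2.75, -4.24 and -3.28 in Rbpj-/- livers, where 2 of 3 arrays were above background. No other gene of these lists moved as far, with a fall of 7.87 (SE 0.36, adjusted p = 3.63e-05). Slco2b1 fell by 1.97 and Slco1b2 by 1.39. Slc27a2 fell by 1.38, and Slc27a5, the bile acid CoA ligase, fell by 0.64 (adjusted p = 0.0569). Slc27a5 lost its call under 9 of 18 alternatives, the quantile-normalized values (-0.27, adjusted p = 0.228) and the leaving out of Rbpj+/+_1024 or Rbpj+/+_991 or of Rbpj-/-_N3 or Rbpj-/-_N5 among them.

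Of the partners and scaffolds that place transporters in the canalicular membrane, 10 were tested and 3 called. The share called was 30%, no greater than the 34.2% of all genes. Tmem30a (CDC50A), the subunit that ATP8B1 needs to leave the endoplasmic reticulum, fell by 0.74 (SE 0.23, adjusted p = 0.0477), and the call was lost without Rbpj+/+_1024 or Rbpj+/+_991 or Rbpj-/-_N3 or Rbpj-/-_N5, with normexp correction (-0.44, adjusted p = 0.115) and without the filter on dim probes (adjusted p = 0.243). Radixin (Rdx), which anchors ABCC2 to actin, fell by 0.92 (SE 0.21, adjusted p = 0.0150), or by 0.34 and no longer called (adjusted p = 0.299) as the mean of its tested probes. Syntaxin 3 (Stx3), an apical membrane fusion protein, rose by 1.81 (SE 0.33, adjusted p = 0.00720), or by 0.82 with normexp correction, still called. The 7 that were not called lay between -0.07 and 0.49.

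Of 15 regulators that act on transporter genes, all transcription factors but Keap1, 5 fell, 1 rose and 9 did not pass. The share called was 40%, near the 34.2% of all genes (14.6% higher and 19.5% lower). Nr1h4, which encodes FXR, the bile acid receptor that acts on Abcb11, read 6.03, 5.78, 5.84 and 5.65 in Rbpj+/+ and 3.94, 4.25 and 4.72 in Rbpj-/- livers. The groups did not overlap, and Nr1h4 fell by 1.52 (SE 0.23, adjusted p = 0.00321). Ppara, the fatty acid receptor, fell by 1.40 (SE 0.28, adjusted p = 0.00962). Both calls held under all 18 alternatives computed for these genes. Nr0b2 (SHP, an FXR target gene) fell by 0.92, Nr5a2 (LRH-1) by 0.70 and Rxra, the partner of FXR and LXR, by 0.53. Ahr, the aryl hydrocarbon receptor, rose by 0.80. These 4 calls were narrow (adjusted p between 0.0408 and 0.0540), and without Rbpj+/+_1024 or without Rbpj-/-_N5 2 factors were called lower and none higher, while 3 were called lower without Rbpj+/+_991 or Rbpj-/-_N3. As the mean of the tested probes of a gene, 3 factors were called lower, Nr5a2 at -0.40 (adjusted p = 0.230) and Rxra at -0.33 (adjusted p = 0.195) not among them. Rxra was not called with normexp correction either (-0.27, adjusted p = 0.109), and without the filter on dim probes 2 factors were called lower and none higher. The LXR genes Nr1h3 (-0.34, adjusted p = 0.232) and Nr1h2 (-0.29, adjusted p = 0.341) were not called, nor were Hnf4a (-0.32), Foxa2 (-0.15), Nr1i2 (0.01), Nr1i3 (-0.47), Cebpb (0.47) and Keap1 (0.15). Nfe2l2, which encodes NRF2, missed the threshold at 0.73 (SE 0.29, adjusted p = 0.101).

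**Figure D3:**
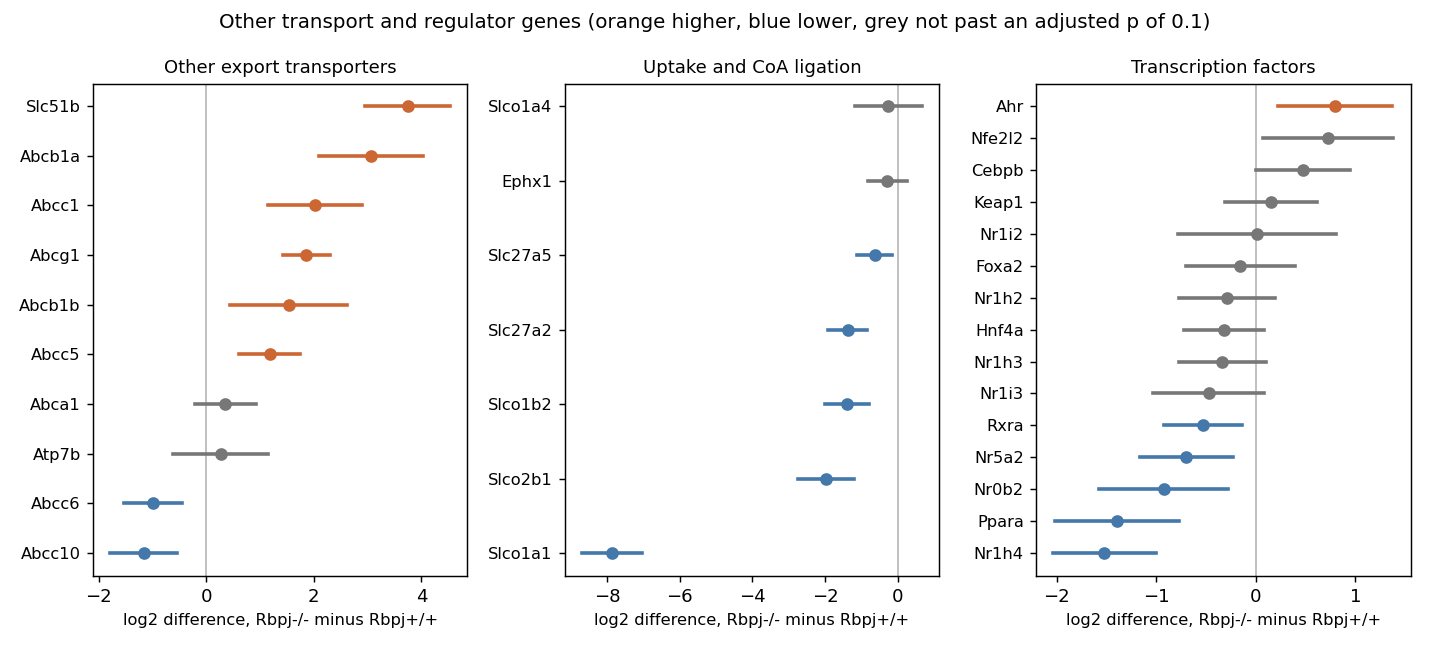
Log2 difference between Rbpj-/- and Rbpj+/+ livers (horizontal axes, with different ranges) for other export transporters, uptake and CoA ligation genes and transcription factors (shown with Keap1, which is not one), with 95% confidence intervals from limma. Slc51b (3.75) and Slco1a1 (-7.87) lie at the ends, and Nr1h4 (-1.52) is the lowest transcription factor.

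LXR switches on Abcg5 and Abcg8, and NRF2 acts on Abcc2, Abcc3 and Abcc4, so other target genes of both were examined. Of 8 LXR targets 3 rose and none fell, with Lpl at 2.16, Abcg1 at 1.86 and Mylip at 1.60. Of 7 tested NRF2 targets 3 rose, Nqo1 by 1.81, Hmox1 by 1.39 and Srxn1 by 0.66, and Gclc fell by 1.27. In either direction 37.5% of the LXR and 57.1% of the NRF2 targets were called, beside 34.2% of all genes. Of all genes 14.6% were called higher and 19.5% lower. With normexp correction 7 LXR targets and 5 NRF2 targets were called higher. With each animal left out it was 3 or 4 LXR targets and 2 or 3 NRF2 targets, and without the filter on dim probes 3 LXR targets and 1 NRF2 target, with no NRF2 target called lower.

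Markers of other liver cell types differed as well. Of 8 macrophage markers 6 rose, and their mean log2 level was 2.40 to 2.87 in Rbpj+/+ and 4.24 to 4.46 in Rbpj-/- livers. Of 11 hepatocyte markers 6 fell and none rose, Alb by 0.78, and their mean level was 7.78 to 8.60 in Rbpj+/+ and 7.76 to 8.07 in Rbpj-/- livers. Of 9 tested cholangiocyte markers 3 rose, of 8 stellate and fibroblast markers 5 rose, and of 8 endothelial markers 4 rose and 1 fell. The lymphocyte markers had 4 of 7 lower and 1 higher, the neutrophil markers 2 of 7 higher and 1 lower, and the erythroid markers 2 of 5 lower. In either direction 34.2% of all genes were called. The share was 33.3% for cholangiocyte, 40% for erythroid, 42.9% for neutrophil and 54.5% for hepatocyte markers. It was 62.5% for endothelial and for stellate and fibroblast, 71.4% for lymphocyte and 75% for macrophage markers. Falls of 0.88 for Abcg2 and 0.90 for Slc10a1 probe A_55_P1954987 were thus close in size to that of Alb. Abcc4 rose beside the macrophage markers. The part of cell makeup in these differences was not tested.

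The pattern over the 7 arrays was most like that of Fpr2, Plekhg2 and Clec14a for Abcc4, each with a Pearson r of 0.99. For Abcb4 probe A_51_P249118 the nearest were Pold2 (r of 0.97), Vegfb (0.96) and Cdc42ep4 (0.94). For Atp8b1 they were Ppfibp1 (0.98), Clcn7 (0.98) and Med16 (0.96), for Abcg8 2410022M11Rik, Polr2e and Mapk6 (each 0.98), and for Slc10a1 probe A_52_P69109 Ccdc13 (0.998), Marchf2 (0.994) and Rilp (0.992). For Abcc2 the nearest named genes were Atr (0.95) and Gorasp2 (0.94), for Abcc3 Atg16l2 (0.96) and Cntrl (0.95), for Abcg5 S100pbp and Rab2b (each 0.96) and for Abcg2 Macroh2a2 (0.99). With 18727 genes and 7 arrays, values this high describe likeness only.

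**Figure D4:**
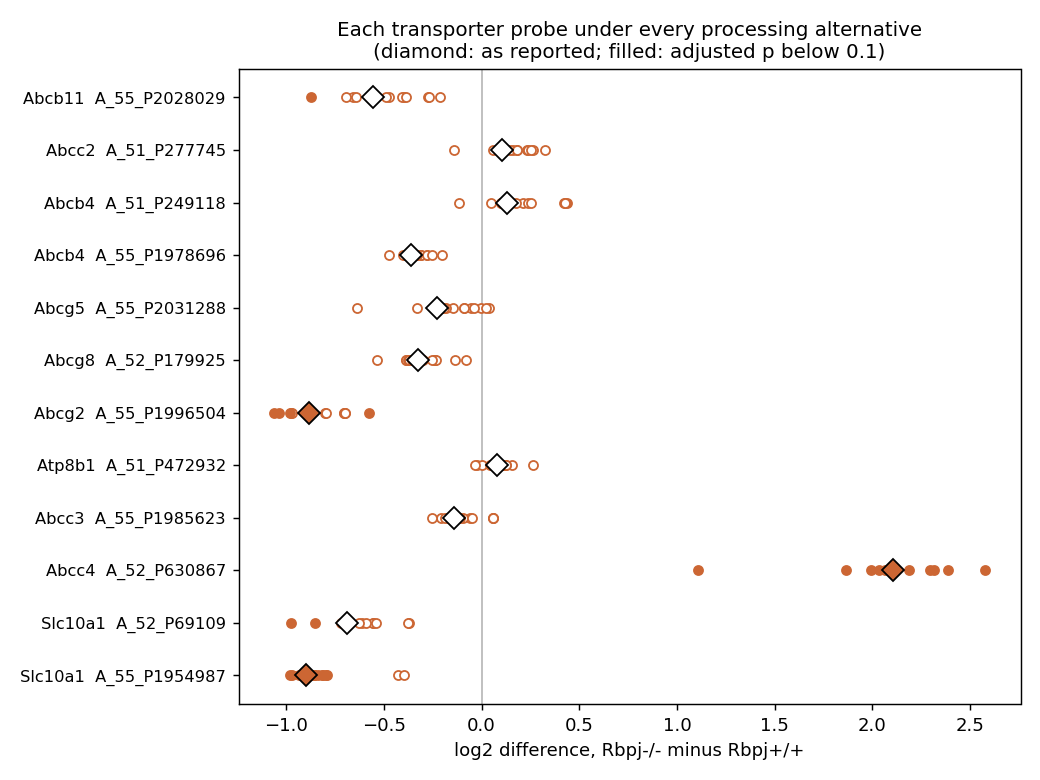
Log2 difference between Rbpj-/- and Rbpj+/+ livers (horizontal axis) for the 12 probes as reported (diamonds) and under each processing alternative (circles), filled where the adjusted p was below 0.1. Abcc4 stays to the right of all others, from 1.11 to 2.58, and Abcg2 and Slc10a1 probe A_55_P1954987 stay below 0 but are not filled throughout.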

How the data were processed

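Total RNA of 7 mouse livers, 1 per array, was hybridised on 1 slide and scanned together, Rbpj+/+ in its first row and Rbpj-/- in its second, so slide row and genotype cannot be told apart. The authors extracted spot intensity with Agilent Feature Extraction 10.7.3.1 (per the labels), and the deposited intensity values used are the background-subtracted processed signals. The deposited series matrix holds log2 values that were quantile-normalized and centred per probe; it served as an alternative. Control spots and 1186 spot values with an outlier mark were left out, spots of a probe were averaged, and each array's 75th percentile was subtracted from its log2 values. Probes above background on every array of 1 group or more were tested with limma 3.58.1 in R 4.3.3, with genotype as the one factor, and p-values were adjusted over all 24548 probes. The study's methods give the false discovery threshold of 0.1. Gene names came from RefSeq accessions (28331 probes), symbols (2209) or synonyms (174), otherwise from the array. Exact permutation tests used scipy 1.17.1. The limma step was tested on simulated data. The 7 animals limit the precision, and the labels do not tie them to litters. Above background lay 41.1% to 64.9% of probes, with Rbpj+/+_1156 and Rbpj-/-_N3 the highest. Alternatives were normexp correction (offset 50), quantile normalization, other percentile probes, filters, marked spots kept, a stricter threshold of 0.05, means of probes, the series matrix, array weights, limma-trend and each animal left out. Another pair was chosen after seeing the data: leaving out both arrays with bright dim probes, and Slc10a1 by its own probe. Named were all members with every probe, other exporters and transcription factors, of each other list the 3 called genes with the largest difference, and of each member the 3 genes with the highest r; further list genes and the markers' Alb were named with their values seen. Left out of the scaffold and of the transcription factor list was 1 gene each, not reported here. Members and lists were chosen with earlier results of these data known.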

Additional observations from a re-analysis of the deposited data

Results flagged for a closer look

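In the 4 Rbpj+/+ livers, 1 of 12 transporter probes and 3 of 41 probes of the other transport and regulator lists had a sample far from the other 3 by Dixon's test, where chance flags about 5% of groups. The Abcg5 level of Rbpj+/+_991 was 4.31, beside 4.69 to 4.75 in the others. In Rbpj+/+_1024 Slco1a4 was at 2.46 and Slco1b2 at 8.63, both above the others. In Rbpj+/+_1156, 1 of the 2 arrays with the brightest dim probes, Ezr was at -0.77, below the others.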

How the results depend on the processing

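Of 214 values of the 12 probes under alternatives, 192 kept their direction and side of the threshold, 8 lost the call, 5 gained it and 9 turned sign. The 1 member called higher became 2 with normexp correction and was 1 without any one animal. The 2 called lower became 1 with quantile normalization, with the authors' series matrix, at a threshold of 0.05 and with Slc10a1 by its own probe, and ranged from 1 to 3 with each animal left out. Without the filter on dim probes limma called 0 lower, with 2 at an unadjusted p below 0.05; 35666 genes were then tested and 1639 called, against 6406, a count that ranged from 3716 to 7100 with each animal left out. Signs turned for Atp8b1 (-0.021 with normexp correction, -0.0318 to 0.26 with each animal left out), Abcc3 (0.0598 with normexp correction, 0.0565 with quantile normalization, 0.0577 in the series matrix), Abcg5 (0.0392 with normexp correction, 0.0222 without both arrays with bright dim probes), Abcc2 (-0.14 to 0.27 with each animal left out), Abcb4 (-0.12 as the mean of its probes) and Abcb1b (-0.48 with marked spots kept, -0.23 in the series matrix). The cause was not tested. The median of all genes was -0.13, and -0.04 after quantile normalization. No paired analysis was possible because the groups share no replicate number. Dim spots, as of Abcc4, leave the size of a change uncertain.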
